A study of Homo sapiens with 4 samples.

Results

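The nuclear-encoded genes of oxidative phosphorylation (OXPHOS) were examined in a list of m6A peaks from MDA-MB-231, a human cell line derived from triple negative breast cancer. Genes were chosen by symbol alone. Nuclear protein-coding genes whose symbol begins with NDUFA, NDUFB, NDUFC, NDUFS, NDUFV, COX4 to COX8, UQCR or ATP5 were taken and pseudogenes were left out, which gave 94 of 19309 nuclear protein-coding genes. These are 7 core and 30 accessory subunits of complex I, 8 complex I assembly factors of the NDUFAF series, 9 genes of complex III, 19 of complex IV, 19 of ATP synthase and 2 read-through genes. NDUFA4 and NDUFA4L2, which RefSeq now names COXFA4 and COXFA4L2, were kept and counted with complex IV. For m6A-seq, fragmented poly(A) RNA was pulled down with an antibody against N6-methyladenosine (m6A) to give 2 IP libraries, and 2 input libraries were made without the pull-down. All 4 libraries came from cells of this line labelled shNS, and the treatment label of the IP libraries reads YTHDC1, whereas their titles and protocol describe the m6A antibody. The deposited list gives 1 combined score per peak. It was read as a p-value for enrichment in IP over input, so that a smaller score marks a stronger peak. No spread between libraries could be computed, and the read depth behind a peak is unknown.

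OXPHOS couples electron transport in the inner mitochondrial membrane to the synthesis of ATP. Complexes I, III and IV pass electrons from NADH to oxygen and pump protons, and ATP synthase uses the proton gradient to make ATP. Most subunits are encoded in the nucleus, translated in the cytosol and imported, while a small set is encoded in the mitochondrial genome. m6A is an internal mark of mRNA that is placed mainly in the sequence context RRACH, in which R is A or G and H is A, C or T. In mRNAs it is best known near stop codons and in long exons, and it is read by proteins such as YTHDC1.

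A listed m6A peak was found on 33 of the 94 nuclear OXPHOS genes, or 35.1% (95% Wilson interval 26.2 to 45.2%), beside 42.6% of all nuclear protein-coding genes. The share over all genes thus lies inside the interval. This interval covers counting error only and treats genes as independent. The list holds no expression values, so a gene without a peak cannot be told apart from a gene with too few reads for a peak to be called. With only peaks at or under the median score of the whole list (5.2e-08), 23 of 94 genes (24.5%) had a peak, beside 27.8% of all protein-coding genes. At a score of 1e-10 or less it was 18 of 94 (19.1%), beside 24.6%. The 33 genes carried 58 peaks, a mean of 1.76 ± 1.12 (SD over 33 genes) per gene with a peak, beside 2.10 ± 1.5 (SD, n = 8228). A single peak was present on 19 of the 33, or 57.6%, beside 45.0%. The median of the strongest score per gene was 6.3e-16, beside 3.2e-15 over all protein-coding genes with a peak. This order is not stable, since as −log10 scores the medians were 15.2 beside 14.5, but 11.7 beside 14.5 for structural subunits only, 9.89 beside 13.2 without peaks that overlap one on the opposite strand and 9.44 beside 12.9 without peaks that share bases with another gene. None of the 33 genes had a score listed at 0, the value of the strongest peaks, beside 401 of the 8228 protein-coding genes with a peak (4.87%). At such a share few would be looked for among 33 genes.

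Peaks were more often listed on minus-strand genes throughout the list, and the nuclear OXPHOS genes followed this split. The strand is known in the RefSeq promoter table for 77 of the 94. Of 38 plus-strand genes 8 had a peak (21.1%, interval 11.1 to 36.3%), beside 30.2% of 7890 plus-strand protein-coding genes. These 8 include NDUFS3 and NDUFA13, whose listed peaks all lay upstream of their RefSeq spans. Of 39 minus-strand genes 20 had a peak (51.3%, interval 36.2 to 66.1%), beside 57.5% of 7553. The 5 genes with a peak and no strand in that table are ATP5MC3, ATP5MF, ATP5MF-PTCD1, NDUFS5 and UQCRB, and with the strand of the peak list 9 of the 33 genes lay on the plus and 24 on the minus strand. The strongest scores differed likewise, with a median of 1.2e-07 on the plus strand, beside 1e-06 for all such genes, and of 2.3e-18 on the minus strand, beside 1.4e-31. At or under the list median the shares were 3 of 38 plus-strand genes (7.89%, beside 12.5%) and 16 of 39 minus-strand genes (41.0%, beside 45.3%). At a score of 1e-10 or less they were 2 of 38 plus-strand genes (5.26%, beside 9.37%) and 13 of 39 minus-strand genes (33.3%, beside 42.0%). What the strand difference of the list reflects was not tested.

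**Figure D1:**
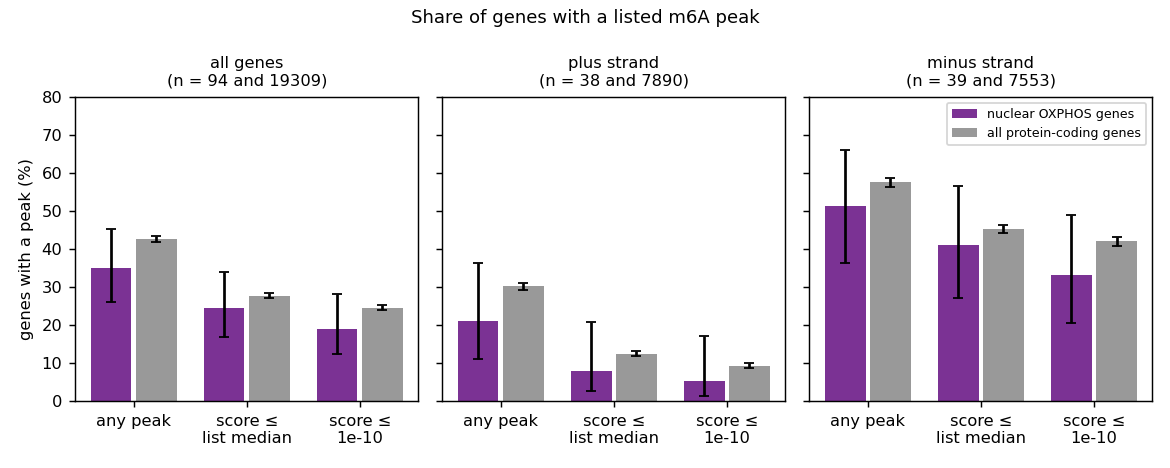
Share of genes with a listed m6A peak (vertical axis, percent) for the nuclear OXPHOS genes (purple) and all nuclear protein-coding genes (grey), at any score, at or under the list median and at 1e-10 or less, for all genes and by strand. Error bars are 95% Wilson intervals, and the purple bars stand below the grey ones in each of the panels, with intervals that reach the grey bars, and are higher on the minus strand (51.3% for any peak) than on the plus strand (21.1%).

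The nuclear OXPHOS genes are short, with a median genomic span of 8909.5 bases, beside 25437 bases over all protein-coding genes. Among genes with a span under 10 kb, 19 of 49 (38.8%) had a peak, beside 33.0% of protein-coding genes of that span. Between 10 and 30 kb it was 11 of 29 (37.9%, beside 44.9%), between 30 and 100 kb 2 of 11 (18.2%, beside 47.0%) and over 100 kb 1 of 5 (20.0%, beside 46.9%). The 3 genes over 30 kb with a peak are COX7A2L, NDUFA10 and ATP5MF-PTCD1. Within the shortest class, 11 of 18 minus-strand genes (61.1%, beside 42.8%) and 5 of 22 plus-strand genes (22.7%, beside 24.8%) had a peak. The lower share over all nuclear OXPHOS genes was thus not seen in the class that holds most of them.

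Peaks over the start of the gene were frequent. Of the 77 genes with a start in the RefSeq promoter table (GRCh38.p14), 13 (16.9%) had a peak of their own over at least 1 of the first 50 transcribed bases, beside 9.75% of 15443 protein-coding genes. Among genes with any peak it was 13 of 28 (46.4%), beside 22.4% of 6724. The gap was also present in both classes of span under 30 kb, on few genes. Among genes with a peak and a span under 10 kb it was 8 of 16 (50%, beside 29.2%), and from 10 to 30 kb 5 of 10 (50%, beside 23.5%). Each longer class held only 1 nuclear OXPHOS gene with a peak and a known start. Neither had a start peak, beside 20.7% from 30 to 100 kb and 16.3% over 100 kb. The 13 genes are ATP5MC1, ATP5PF, COX6A1, NDUFA2, NDUFA4, NDUFA7, NDUFA8, NDUFAF1, NDUFB10, NDUFB2, NDUFB8, NDUFC1 and UQCR11, and they have 16 starts under a peak. In ATP5PF, NDUFA7, NDUFB2, NDUFB8 and UQCR11 the start peak shares bases with a listed peak of another gene. Start counts without shared peaks were not made. The first 30 bases of 9 of these starts are printed. All starts under a peak with an RRACH word within these 30 bases are shown, but only some of those without. The printed set is thus richer in such words than the 16 starts. In NDUFB2 the peak covers only the first 22 bases. Each is written 5′ to 3′ on the sense strand, from RefSeq, and capitals mark RRACH words.
ATP5MC1, chr17:48892787-48892816, plus strand: aGGACAcgtgggtgggggaagctgagcgct
ATP5PF, chr21:25735025-25735054, minus strand: ctgtttggcttctgtctcacctAGACCcgt
NDUFA2, chr5:140647601-140647630, minus strand: gcacttggcctgaAGACCtggaattggcga
NDUFB10, chr16:1959538-1959567, plus strand: gtagcgggcgacctaggccgcgGGACCcgg
NDUFB2, chr7:140696708-140696737, plus strand: gaggcggctggGGACCgcggggcggacggg
UQCR11, chr19:1605433-1605462, minus strand: agtgtagccgggtcagctGGACAgggtcat
NDUFA8, chr9:122159750-122159779, minus strand: atgcgcaggcgccgtgtggcactcggcggt
NDUFAF1, chr15:41402467-41402496, minus strand: atacgggtaaagtggcttctgggcggaagg
NDUFB8, chr10:100529894-100529923, minus strand: acgtttggcccggctcagccgccgtgacag

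In the first 6 of these sequences a single RRACH word falls within the first 30 bases, and the last 3 hold none. The 12 words searched begin with AAAC, with AGAC, with GAAC or with GGAC and end with A, with C or with T, and they were searched on the sense strand only, overlaps allowed. Over the first 50 bases, 7 of the 16 starts under their own peak (43.8%) held a word, beside 38.0% of 1631 such starts of protein-coding genes, 36 of all 96 starts of nuclear OXPHOS genes (37.5%) and 37.1% of all 21747 protein-coding starts. These words were thus about as common under the start peaks as elsewhere, and a match is no proof of a modified site. The first base was A in 9 of the 16 starts (56.2%, beside 58.2% of starts of protein-coding genes under their own peak) and in 33 of all 96 starts (34.4%, beside 49.9%). As background, an A at the first transcribed base can carry the cap mark m6Am, which antibodies against m6A also bind. Its part in these peaks was not tested.

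**Figure D2:**
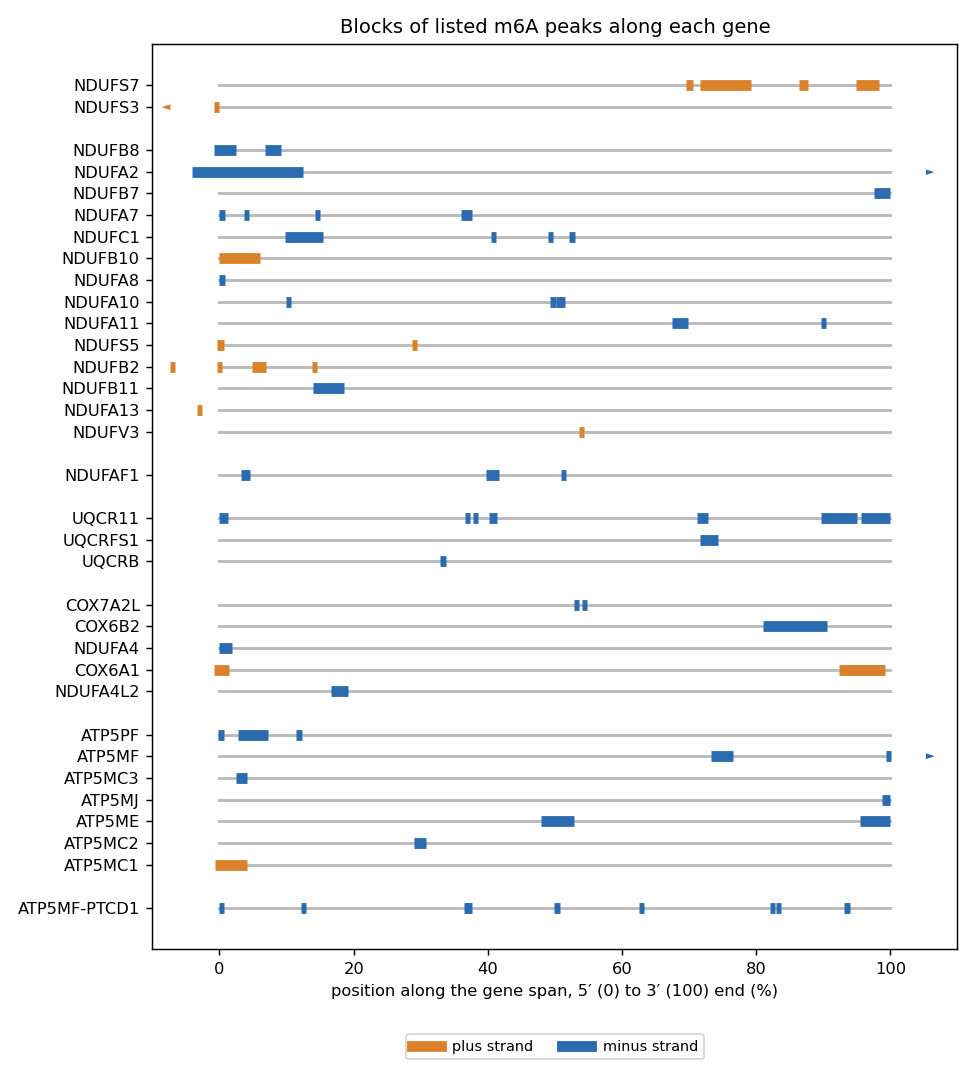
Blocks of the listed m6A peaks along the genomic span of each of the 33 nuclear OXPHOS genes with a peak, from the 5′ end (0%) to the 3′ end (100%) of the RefSeq span, introns included, in orange for plus-strand and blue for minus-strand genes. Arrowheads stand for blocks further outside the span. Blocks cluster at the 5′ end in genes such as NDUFB8, NDUFA2, NDUFB10 and ATP5PF and lie at the 3′ end in NDUFB7 and ATP5MJ. Those of UQCR11 reach from its start to its 3′ end.

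Of the 58 peaks, 43 (74.1%) lay wholly inside the RefSeq span of their own gene, 10 partly and 5 outside, beside 93.0% of 17262 peaks of protein-coding genes inside. Positions were taken from the 43 peaks inside, which belong to 27 genes. Most of the 10 peaks partly inside overhang the 5′ end of the span, among them the start peaks of NDUFB8 and NDUFA2. The position shares leave these out. The midpoint fell in the first 10% of the span for 9 (20.9%, beside 12.4% of 16056 peaks) and in the final 10% for 8 (18.6%, beside 37.3%). The median midpoint was at 53.7% of the span, beside 80.3%. Short spans hold fewer peaks in their final 10% in general, since over protein-coding genes under 10 kb the share was 17.9%. The nuclear OXPHOS genes under 10 kb had 6 of 17 peaks there (35.3%), while those of 10 to 30 kb had 1 of 16 (6.25%, beside 32.1%). The peaks were also slightly shorter, with a median spliced length of 177 bases (range 59 to 899), beside 211 bases, and 43 of 58 (74.1%) lay in a single block, beside 81.6%.

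**Figure D3:**
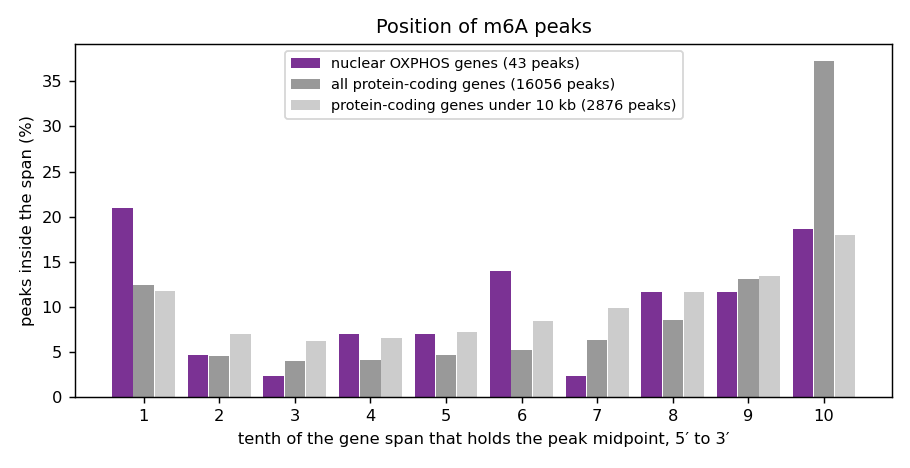
Percent of peaks (vertical axis) by the part of the gene span, in 10 equal parts, that holds the peak midpoint (horizontal axis, 5′ to 3′), for 43 peaks of nuclear OXPHOS genes (purple), all protein-coding genes (dark grey) and protein-coding genes with a span under 10 kb (light grey). The purple bar of part 1 reaches 20.9%. That of part 10 reaches 18.6%, beside 17.9% for short genes and 37.3% for all genes. The purple bars hold peaks wholly inside genes of any span, and nuclear OXPHOS genes under 10 kb alone had 35.3% in part 10.

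Some peaks could not be given to a single gene. Of the 58 peaks, 18 (31.0%) shared at least 1 base with a listed peak of another gene, beside 11.2% of peaks of protein-coding genes. On the same strand it was 13 (22.4%, beside 4.01%) and on the opposite strand 7 (12.1%, beside 7.54%). Few genes hold many of them. The 13 include all 5 peaks of the read-through gene ATP5MF-PTCD1 and 1 of ATP5MF at the same locus, and the 7 include several of NDUFS7. Without the 18 shared peaks 29 of the 94 genes (30.9%) kept a peak, beside 39.2% of protein-coding genes. The shared bases are named below with each gene, because a peak that lies on 2 overlapping genes was scored once for each of them.

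Complex I takes electrons from NADH. Its 7 nuclear core subunits carry the flavin and iron-sulfur clusters of the matrix arm. Of these, 2 had a peak (28.6%, beside 42.6% of all protein-coding genes), NDUFS7 and NDUFS3. NDUFS7, which holds the last iron-sulfur cluster before ubiquinone, had 4 peaks between chr19:1392026 and chr19:1395379 with scores from 0.00031 to 2e-12. The longest, 899 bases, was also the longest peak of all the nuclear OXPHOS genes. In 3 of the 4 peaks most bases were shared with peaks of ENSG00000248015 on the opposite strand, whose scores of 7.9e-12, 0.00019 and 2.5e-12 were close to those of NDUFS7 (2e-12, 0.00015 and 2.5e-11). NDUFS3 had 2 peaks, of 0.00012 and 1.2e-07, but both lay upstream of its RefSeq span and shared bases with peaks of PTPMT1, a mitochondrial phosphatase gene. The former also shared 121 of its 180 bases with a peak of CELF1 on the opposite strand, with the same score of 0.00012. No peak was listed for NDUFS1, NDUFS8, NDUFV1 or NDUFV2.

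The 30 accessory subunits surround the core and are needed for its assembly and stability. Of these, 14 had a peak (46.7%, beside 42.6% of all protein-coding genes). At or under the list median it was 11 of 30, beside 27.8%. NDUFB8 had the strongest, of 1e-156, at chr10:100529352-100529970 over the start of the gene. Only 17.1% of minus-strand protein-coding genes with a peak had one at least as strong. Of its 359 bases, 209 were shared with a peak of ENSG00000255339 on the same strand, scored 1e-148. NDUFA2 had a peak of 2.5e-93 over its start (chr5:140647339-140647726) and a weak one of 0.0028 outside its span. Both peaks have bases within the RefSeq span of TMCO6. NDUFB7 had a peak of 1.3e-52 that ended at the 3′ end of its span (chr19:14566078-14566226). These genes show the 2 ends of the range of positions, and neither the NDUFA2 nor the NDUFB7 peak shared bases with a peak of another gene.

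NDUFA7 had peaks of 6.3e-49, at its start, and 1.3e-41, and both shared bases with a peak of ENSG00000167774 scored 4e-96. The former also shared 68 bases with a weak peak of RPS28 on the opposite strand (1.7e-05). The NDUFC1 peak, of 5e-31, ran over 777 bases in 5 blocks and was the second longest. NDUFB10 had the strongest peak of the plus-strand nuclear OXPHOS genes, of 3.2e-23, from the first base of its span (chr16:1959538-1959686). Of plus-strand protein-coding genes with a peak, 16.0% had one at least as strong. The NDUFA8 peak of 3.2e-18 likewise began at the first base (chr9:122159660-122159779). NDUFA10, the longest of these genes with a peak, had 4, of which 3 clustered near the middle of its span with scores of 1.5e-07, 4.9e-07 and 3.7e-05 and the strongest, 1.3e-10, lay 13135 bases from its start.

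The other accessory subunits had weaker peaks. NDUFA11 had scores of 3.6e-10 and 0.00081, NDUFS5 4.9e-10 and NDUFB2 5.6e-09 and 0.00017, the latter shared over 31 bases with the antisense gene NDUFB2-AS1 (1.3e-11). NDUFB11 (0.00039), NDUFA13 (0.0048) and NDUFV3 (0.0063) had the weakest, and at least 94.0% of protein-coding genes with a peak on the same strand had one as strong or stronger. The NDUFA13 peak lay outside its RefSeq span, upstream of the start. No peak was listed for NDUFA1, NDUFA3, NDUFA5, NDUFA6, NDUFA9, NDUFA12, NDUFAB1, NDUFB1, NDUFB3, NDUFB4, NDUFB5, NDUFB6, NDUFB9, NDUFC2, NDUFS4 or NDUFS6. When core and accessory subunits were divided by arm, 11 of 21 subunits of the membrane arm (52.4%) and 5 of 16 of the matrix arm (31.2%) had a peak, beside 42.6% of all protein-coding genes. This division was made after the values were seen, and the difference was not tested.

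Of the 8 NDUFAF genes, whose products help to assemble complex I, 1 had a peak (12.5%, beside 42.6% of all protein-coding genes). It was NDUFAF1, and its peak of 1e-182 (chr15:41395033-41396802, 328 bases in 2 blocks) was the strongest of all but the read-through gene. Its other peak, of 4.7e-10, covered the gene start. Neither shared bases with a peak of another gene, and 14.6% of minus-strand protein-coding genes with a peak had one at least as strong. NDUFAF2 to NDUFAF8 had no listed peak.

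In complex III, which passes electrons from ubiquinol to cytochrome c, 3 of 9 genes had a peak (33.3%, beside 42.6% of all protein-coding genes). UQCR11, a small subunit, had 4, with scores of 1.6e-85, 2.5e-54, 1.6e-24 and 2e-17. Together they spanned the gene from its start to its 3′ end. The strongest (chr19:1597584-1598029) and the most 3′ shared no bases with other genes, while the other two shared 136 and 86 bases with a peak of ENSG00000267059 scored 1.3e-75. UQCRFS1, the Rieske iron-sulfur protein, had a peak of 1.7e-09, and UQCRB, which helps to bind ubiquinone, had a peak of 1.1e-05. The core proteins UQCRC1 and UQCRC2 had none, nor did UQCR10, UQCRH, UQCRHL or UQCRQ.

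In complex IV, which reduces oxygen, 5 of 19 genes had a peak (26.3%, beside 42.6% of all protein-coding genes). At or under the list median it was 2 of 19, beside 27.8%. COX7A2L, which links complexes III and IV into supercomplexes, had the strongest, of 1e-36 (chr2:42351142-42351322), and a further peak of 3.5e-07. COX6B2, the testis isoform of COX6B, had a peak of 6.3e-16 over 481 bases, while its widely expressed counterpart COX6B1 had none. The reverse held for COX6A, of which the widely expressed COX6A1 had peaks and the muscle isoform COX6A2 had none. COX6A1 had a peak of 3.9e-06 at its start and a pair of overlapping entries of 0.00044 and 0.00055 near its 3′ end, which cover the same 147 bases and may be counted as a single peak. NDUFA4 (2.8e-06, at its start) and its paralog NDUFA4L2 (0.0001), which is known to be induced by hypoxia, each had a weak peak. COX4I1, COX4I2, COX5A, COX5B, COX6C, COX7A1, COX7A2, COX7B, COX7B2, COX7C, COX8A and COX8C had no listed peak.

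ATP synthase had peaks on 7 of 19 genes (36.8%, beside 42.6% of all protein-coding genes). At or under the list median it was 5 of 19, beside 27.8%. Its parts, which were divided after the values were seen, hold few genes each, and no test was run on their counts, beside 42.6% of all protein-coding genes with a peak. None of the 5 genes of the catalytic F1 head and its central stalk (ATP5F1A to ATP5F1E) had a peak, nor did the gene of the inhibitor ATP5IF1. All 3 genes of the c subunit, which forms the proton-driven rotor ring and has the same mature protein whichever gene encodes it, had a peak: ATP5MC3 at 1.6e-18, ATP5MC2 at 2.2e-06 and ATP5MC1 at 0.00049. The ATP5MC1 peak covered the gene start printed above. Near-identical parts of these paralogs can share reads, so the division of reads among them is uncertain.

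Of the 4 peripheral stalk genes only ATP5PF had peaks, the strongest of 1e-127 over 533 bases near its start (chr21:25734338-25735347). Its other peak, of 0.00058, lay at the 5′ end of the span. The strongest shared 111 bases with a peak of GABPA, scored 1.6e-06, on the opposite strand. GABPA encodes a transcription factor subunit known to activate OXPHOS genes and lies head to head with ATP5PF. Among the small membrane subunits, ATP5MF had a peak of 1e-114 (chr7:99460062-99460331). Its peak of 2.5e-13 ran past the 3′ end of its span, and its peak of 0.0023 lay wholly beyond that end. Both have blocks within the spans of ATP5MF-PTCD1 and CPSF4. ATP5MJ had a peak of 3.2e-18 and ATP5ME a peak of 2.5e-17, and both reached the 3′ end of their spans. ATP5MG, ATP5MGL and ATP5MK had none, nor did ATP5PB, ATP5PD and ATP5PO.

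The read-through gene ATP5MF-PTCD1, which joins ATP5MF to its neighbour PTCD1, had 5 peaks and the strongest score of all 94 genes, 1e-195. Each of the 5 shared bases with a peak of PTCD1 or ATP5MF. The strongest shared 372 of 388 bases with a PTCD1 peak of 1e-227, and the peak of 1e-115 shared 108 bases with the ATP5MF peak of 1e-114. Its values can therefore not be told apart from those of the 2 genes it joins. The other read-through gene, NDUFC2-KCTD14, had no peak. Leaving out the read-through and NDUFAF genes leaves 84 structural subunits. Of these, 31 had a peak (36.9%, interval 27.4 to 47.6%, beside 42.6% of all protein-coding genes). Their median strongest score was 2e-12, beside 3.2e-15 over all protein-coding genes with a peak.

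**Figure D4:**
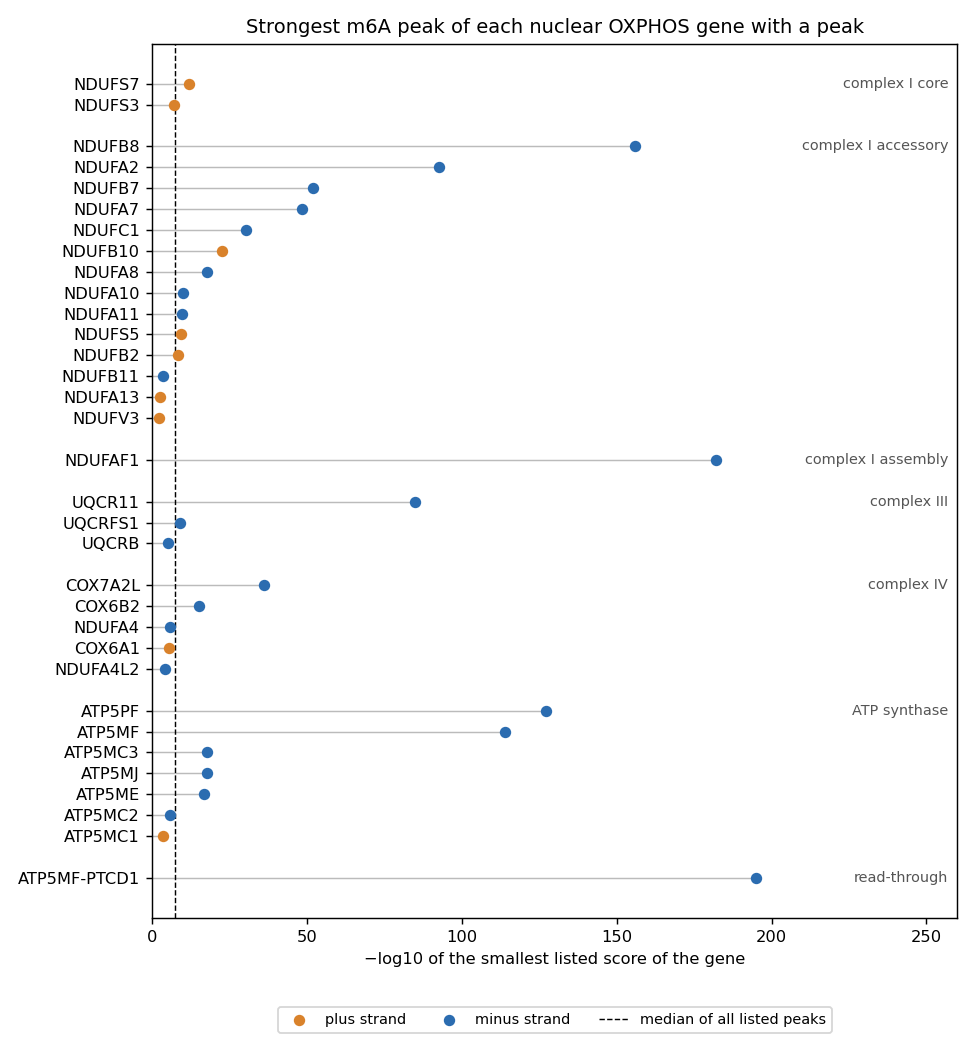
Strongest score of each of the 33 nuclear OXPHOS genes with a peak, as −log10 of the listed score (horizontal axis), grouped by complex, in orange for plus-strand and blue for minus-strand genes, with the median of all listed peaks as a dashed line. ATP5MF-PTCD1 (195), NDUFAF1 (182), NDUFB8 (156), ATP5PF (127) and ATP5MF (114) lead, all on the minus strand, and the 9 plus-strand genes reach 22.5 at most.

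Further genes of OXPHOS and of linked mitochondrial functions were counted from 11 unlike lists of 118 genes. Of the 118 genes, 71 had a peak (60.2%, beside 42.6% of all protein-coding genes), with shares per list from 25.0% to 88.2%. Complex II, a further entry point of electrons, had a peak on 1 of 4 genes, SDHB (1e-06), and none on SDHA, SDHC or SDHD. The electron carrier cytochrome c (CYCS) had 2 peaks, the stronger of 5e-67, and CYC1 of complex III had none. In the lists of assembly factors outside the symbol rule from 2 of 4 (50%) to 9 of 12 (75.0%) genes had a peak, and the difference from the subunits was not tested. The complex I assembly list had the highest share, led by TMEM186 (1e-200), COA1 (6.3e-81) and DMAC1 (6.3e-61), with none on FOXRED1, NUBPL and TMEM70. This compares with 1 of 8 NDUFAF genes. For complex III assembly it was 6 of 9 (66.7%), led by UQCC4 (listed at 0), UQCC3 (5e-44) and UQCC1 (1.3e-19), with none on TTC19, LYRM7 and UQCC5.

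The complex IV assembly list had 17 of 26 (65.4%), with SCO2, COA3, COA4 and COA7 listed at 0 and SCO1 at 1e-287, whereas none of the 19 complex IV genes had a score under 1e-36. SCO2 and SCO1 help to build a copper centre of the enzyme, and COA3 acts early in its assembly. ATP synthase assembly had 3 of 5 (ATPAF1 5e-88, TMEM242 2.5e-66 and ATPAF2 3.9e-07, with none on FMC1 and DMAC2L). Complex II assembly had 2 of 4, SDHAF1 (1.6e-11) and SDHAF2 (6.5e-05), with none on SDHAF3 and SDHAF4. Regulators of mitochondrial biogenesis had 15 of 17 (88.2%), led by TFB1M (2.5e-81), MTERF1 (1.6e-54) and TEFM (6.3e-51), all of which act in mitochondrial gene expression, and ESRRA and TFAM had none. Shares were lower for the TCA cycle (8 of 15, 53.3%, among them MDH2 at 3.7e-09 and IDH2 at 1.9e-07) and coenzyme Q synthesis (5 of 13, 38.5%, led by COQ5 at 1.3e-56, COQ3 at 5e-16 and COQ6 at 3.2e-12). The pyruvate dehydrogenase list had 4 of 11 (36.4%), PDHB (4e-15), PDP2 (2.5e-08), PDP1 (2.6e-06) and PDK4 (0.00013), with none on PDHA1, PDHA2, PDHX, DLAT, PDK1, PDK2 and PDK3.

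Other sets of short, widely expressed genes lay on both sides of the nuclear OXPHOS genes. Cytosolic ribosomal protein genes had a peak in 23 of 87 (26.4%, interval 18.3 to 36.6%, beside 42.6% of all protein-coding genes). Their median strongest score was 1.7e-06, beside 3.2e-15 over all protein-coding genes with a peak. Mitochondrial ribosomal protein genes had a peak in 42 of 78 (53.8%, interval 42.9 to 64.5%, beside the same 42.6%), with a median of 3.2e-30. On the plus strand the 3 sets were close, at 21.1% of nuclear OXPHOS, 21.4% of cytosolic and 21.6% of mitochondrial ribosomal protein genes. All 3 lay below the 30.2% of plus-strand protein-coding genes. On the minus strand they were 51.3%, 35.7% and 87.9%, beside 57.5% of minus-strand protein-coding genes. The interval of the mitochondrial ribosomal protein genes (72.7 to 95.2%) did not meet that of the nuclear OXPHOS genes (36.2 to 66.1%). These intervals cover counting error only and treat genes as independent. No test was run on these differences. Of the 13 mitochondrially encoded OXPHOS mRNAs, which are transcribed as long joint precursors, 10 had a peak, beside 42.6% of nuclear protein-coding genes. None was listed for MT-CO3, MT-ND3 and MT-ND4L.

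**Figure D5:**
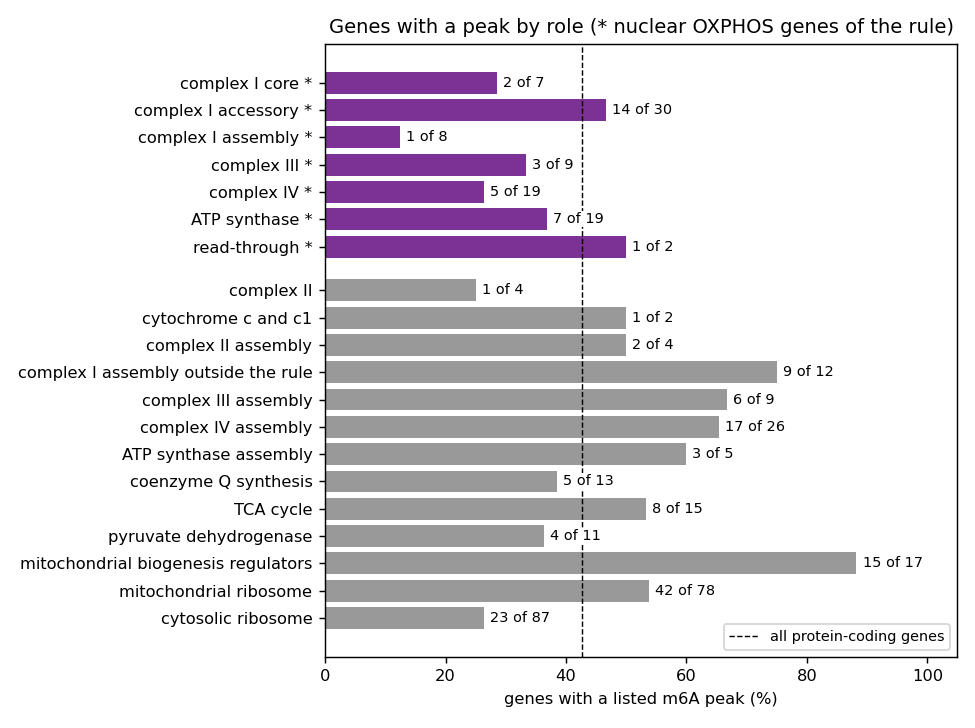
Percent of genes with a listed m6A peak (horizontal axis) by role for the nuclear OXPHOS genes (purple, marked with a star) and for other lists (grey), with the count beside each bar and the 42.6% of all protein-coding genes as a dashed line. The accessory subunits of complex I (14 of 30) and the read-through genes (1 of 2) pass the line among the purple bars, and the biogenesis regulators (15 of 17) have the longest grey bar.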

How the data were processed

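The samples were 2 input and 2 IP libraries of m6A-seq. The authors mapped reads with STAR to the GENCODE transcriptome of hg38, called peaks with exomePeak at default settings and kept peaks past thresholds of fold enrichment and FDR. Each peak of the deposited list has a score, which was taken as exomePeak's p-value. An FDR cannot be told apart from it. The list holds 20261 peaks on 10140 gene IDs, of which 745 peaks stand in a further block where the chromosomes start again. It gives no counts and 1 score per peak, so depth is unknown and no test over libraries was possible.

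Gene IDs were paired with symbols and with RefSeq GRCh38.p14 spans. Of 20037 nuclear protein-coding RefSeq genes 19309 were matched, 156 of them by synonym, and 728 were not used. Scores of 0 were ranked at a −log10 of 323. Peaks were compared by their blocks with a minimum of 1 shared base, which was tested on simulated data (200 of 200 planted overlaps found). Gene starts, strands and sequences came from the RefSeq promoter table, which held 77 of the 94 genes. Positions refer to the genomic span. Exons, UTRs, coding sequence and proteins were not analysed here. Intervals are 95% Wilson intervals. Values were given for genes with a peak, and genes without were named by role. From the other lists, the 3 genes with the smallest scores and, for lists of up to 12 genes, those without a peak were named. Some genes that this rule names are not reported here. The genes and lists were chosen with earlier results of these data known, and the gene start, shared base and subunit part counts were added after values were seen. Python 3.11.15, pandas 2.3.3, NumPy 2.4.6, SciPy 1.17.1 and matplotlib 3.10.9 were used.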

Additional observations from a re-analysis of the deposited data

How the results depend on the processing

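Of 36 alternative values, 27 stayed within the error of the value reported or, for counts of peaks, within 1.5 times it, and 9 moved. All 9 moved downward, through alternatives that leave out peaks. With only peaks at or under the list median, the share of nuclear OXPHOS genes with a peak fell from 35.1% to 24.5%, that of plus-strand genes to 7.89%, the number of peaks from 58 to 34, and the share over the other pathway lists from 60.2% to 36.4%, beside a fall from 42.6% to 27.8% over all protein-coding genes. At a score of 1e-10 or less the shares were 19.1% for all, 5.26% for plus-strand and 33.3% for minus-strand nuclear OXPHOS genes and 30.5% for the other lists, beside 24.6% over all protein-coding genes. Without peaks that share bases with another gene, an alternative chosen after seeing the data, the other lists stood at 50.8%, beside 39.2%. The median strongest −log10 score varied from 15.2 (beside 14.5 over all protein-coding genes) to 9.44 (beside 12.9), and so passed from above to below that of all genes. The share of peaks in the final 10% of the span varied from 16.7% to 25.6%, beside 37.3% to 41.5%. No paired analysis was possible because all libraries share 1 score per peak, and leaving out a library was not possible for the same reason. Classes of protein length and a map of UTRs were intended and not run.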

Other observations

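Relatives of the nuclear OXPHOS genes that are not protein-coding also had listed peaks. The pseudogene NDUFAF2P1 had a peak of 5.1e-08 over 210 bases on chromosome 2, although NDUFAF2 itself had none. The antisense genes NDUFB2-AS1 (1.3e-11, 690 bases) and NDUFV2-AS1 (2.6e-06, 389 bases) each had 1 peak on the minus strand. NDUFB2 had peaks of its own on the opposite strand, whereas NDUFV2 had none.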
